A study of Arabidopsis thaliana with 18 samples.

Results

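Whole seedlings of the Arabidopsis thaliana mutants vte2-1 and vte1-1 were compared after 1 day (24 hours) at 22 °C. The comparison took the 3 arrays labelled vte2-1 and the 3 arrays labelled vte1-1 of that age, 6 of the 18 arrays of the series, by genotype and age alone. Both mutants were in the Columbia-0 (Col-0) background and are called vte2 and vte1 here. All groups had been kept for 5 days at 6 °C to break dormancy and were then grown with a 12-hour photoperiod on agar plates with 0.5X Murashige and Skoog salts, without any further agent. Each mutant was represented by 1 allele, and each RNA came from about 100 mg of whole seedlings, so that all organs were pooled. Untreated wild type (Col-0) of the same age, and all 3 genotypes after 3 days, 3 arrays each, served for orientation. The stated aim of the study included the comparison of the mutants with each other.

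Tocopherols, the compounds known as vitamin E, are lipid-soluble antioxidants made in plastids, and seeds hold much of them in their oil-rich tissues. VTE2 encodes homogentisate phytyltransferase, which joins homogentisate to a phytyl chain in the first committed step, and VTE1 encodes tocopherol cyclase, which closes the ring of a later intermediate. Both mutants lack tocopherols, but vte1 accumulates the quinol that the cyclase would have used, a compound that vte2 does not make. VTE1 and VTE2 were not analysed here, because the probe table used names no probe set for either gene.

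The 6 arrays had median signals between 121.8 and 161.25 linear units, and the highest in either group was replicate 3 (vte1 143.8, vte2 161.25). The 3' to 5' signal ratio of GAPDH, which moves with RNA quality and labelling, was also lowest in replicate 3 of both groups, with log2 ratios of -0.13 (vte1) and -0.23 (vte2) against 0.24 to 1.13 on the other 4 arrays. Replicate 3 of vte1 stood apart from its group. Its log2 signals correlated with those of vte1 replicates 1 and 2 at r = 0.898 and 0.917 across probe sets, and with the 3 vte2 arrays at 0.925 to 0.935. Replicates 1 and 2 correlated at 0.974 within either group, and the lowest value of all was 0.840, between vte1 replicate 1 and vte2 replicate 3. With 3 arrays a group, precision is limited throughout.

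At day 1 the mutants differed mainly through transcripts that were scarcer in vte1. Of 15922 probe sets tested, 831 (5.22%) were called at an adjusted p under 0.05 by limma, 657 (4.13%) of them higher and 174 (1.09%) lower in vte2 than in vte1. The difference was at least 2-fold for 564 of the higher and 130 of the lower probe sets, 4.36% of those tested. Only 372 of the 831 had a single gene in the probe table, and 459 could not be named. All 3 vte2 values lay beyond all 3 vte1 values for 789 of the 831 called probe sets (4.96% of those tested). Of all 15922 tested, called or not, 3008 (18.9%) were separated in this way, the 789 included. Replicate 3 of vte1 and of vte2 deviated together from their group means (r = 0.515). Replicates 1 and 2 were not clearly paired, with 0.256 and 0.344 for the same numbers and 0.319 and 0.185 across them. With the replicate number as a block 1256 probe sets were called (7.89%), 933 higher (5.86%) and 323 lower (2.03%), among them all 831. The count depended on single arrays: it was 382, 370 and 1854 without vte1 replicates 1, 2 and 3, and 408 without vte2 replicate 3. It was 102 when the 6 arrays were fitted alone and 372 with the 9 arrays of day 1. These fits estimate the spread from fewer arrays and from day 1 alone, and what lowered the counts was not tested.

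The median level of the called probe sets is given array by array, on the same arrays that had chosen these sets. The 657 probe sets that were higher in vte2 had median log2 levels of 6.96, 7 and 7.93 on vte1 replicates 1 to 3, 8.79, 8.83 and 9.49 on the vte2 arrays, and 8.57, 8.55 and 8.69 in wild type. The 174 lower ones had medians of 9.96, 10.01 and 9.53 in vte1, 8.67, 8.43 and 8.03 in vte2, and 8.97, 9.06 and 8.81 in wild type. Replicate 3 of vte1 thus lay nearest to the other groups in both sets, and replicate 3 of vte2 lay farthest from vte1. Taken by replicate number, the median difference of the higher set was 1.57, 1.58 and 1.3 on the log2 scale, and that of the lower set -1.3, -1.33 and -1.39. The same sign occurred in all 3 pairs for 652 of the 657 and for 173 of the 174, a description only, because these arrays had chosen the sets.

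Wild type was not part of the contrast, but each mutant could be set against it. The median log2 difference from wild type of the 657 higher probe sets was -1.18 for vte1 and 0.33 for vte2. For the 174 lower ones it was 0.81 in vte1 and -0.5 in vte2. These values reuse the arrays that chose the sets, so they describe where wild type lay and test nothing.

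Root and root hair markers had the highest median difference of the lists with at least 3 measured genes. Class III peroxidases are secreted enzymes that oxidise phenolics and reshape cell walls, many of them in roots, and alpha-expansins loosen walls during growth. All 4 measured genes of a list of 26 root and root hair markers were called higher in vte2, with a median log2 difference of 3.43. Of the 8676 tested probe sets with a single named gene 3.25% were called higher, with a median difference of 0.00. This list, like the others, was chosen with earlier results of these data known, so such counts describe and do not test. Summed over the 4 markers, the signal was 68.9, 128.1 and 1041 in vte1, 1670.5, 1939.4 and 17250.8 in vte2, and 2956.9, 2530.3 and 3686.9 in wild type. Replicate 3 was the highest array of each group, and vte2 replicate 3 exceeded all others. The count of 4 was 1 without vte1 replicate 1 or 2, and 2 without vte2 replicate 3. In whole seedlings, fewer cells of a type and less RNA per cell cannot be told apart.

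The peroxidase gene AT1G30870 had signals of 5.4, 28.2 and 440.6 in vte1 against 852, 976 and 6667.7 in vte2. The groups did not overlap, and the difference was 4.39 ± 0.76 on the log2 scale (± SE, adjusted p = 0.0015). Wild type lay at 1382 ± 116 (SD, n = 3), above all vte1 arrays. A second peroxidase of root hairs, AT3G49960, gave 1.9, 18.5 and 276.2 in vte1 and 382.2, 353 and 5823.2 in vte2, a difference of 3.86 ± 0.84 (adjusted p = 0.0091). The lowest vte1 signals lay under the 22 units added before taking logarithms, so the size of such differences is understated. EXPA7 (AT1G12560), an expansin of root hair cells, had signals of 18.3, 33.2 and 244.7 against 281.5, 412.9 and 2313.1 and differed by 3.01 ± 0.65 (adjusted p = 0.0085). EXPA18 (AT1G62980), its close relative, had 43.3, 48.2 and 79.5 against 154.8, 197.5 and 2446.8 (2.56 ± 0.66, adjusted p = 0.028). All 4 genes were separated between the groups, but within vte2 replicate 3 was far above its partners. Only AT1G30870 remained called whichever of the 6 arrays was left out. Without vte1 replicates 1 or 2, the adjusted p was 0.07 and 0.06 for AT3G49960, 0.064 and 0.059 for EXPA7 and 0.11 in both cases for EXPA18. Without vte2 replicate 3 it was 0.053 for EXPA7 and 0.089 for EXPA18.

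**Figure D1:**
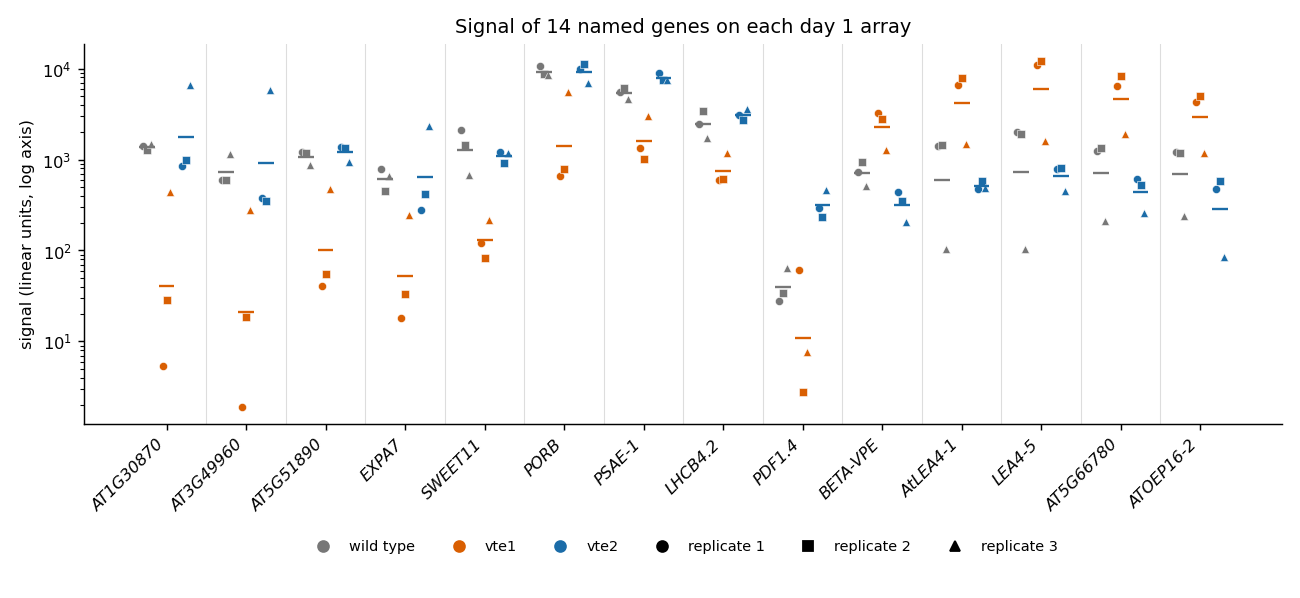
Signal (linear units, log axis) of 14 named genes on each day 1 array of wild type, vte1 and vte2; each point is 1 array, its shape gives the replicate and the bar is the geometric mean of the 3 arrays. The peroxidase AT1G30870 runs from 5.4 to 440.6 in vte1 and from 852 to 6667.7 in vte2, and LEA4-5 from 1605.3 to 12017.4 in vte1 and from 454.5 to 801.9 in vte2.

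Of probe sets with a single named gene, 3.25% were called higher in vte2 and 1.04% lower. Across the peroxidase family, 11 of 37 measured members were called higher in vte2 and none lower, with a median difference of 0.51. Among the 11 were AT1G30870 and AT3G49960, already counted as root markers. Those called ran from 1.34 to 4.39, and 28 of the 37 lay above 0. The count was 4 without vte1 replicate 1 or 2 and 6 without vte2 replicate 3. AT5G51890 had signals of 40.8, 55.6 and 469.7 in vte1 against 1374.2, 1353.4 and 945.5 in vte2. Here vte2 replicate 3 was the lowest of its group, and the difference was 3.20 ± 0.50 (adjusted p = 0.00065), called with any 1 of the 6 arrays left out. AT3G01190 had 21.7, 27.2 and 446.6 against 714.1, 638.4 and 1017.2, a difference of 2.99 ± 0.64 (adjusted p = 0.0085, and 0.066 and 0.07 without vte1 replicates 1 and 2). AT4G26010 was called although its groups overlapped: vte1 gave 2.8, 1.5 and 381.5, and vte2 gave 269.8, 234.9 and 7827.3 (3.76 ± 1.05, adjusted p = 0.043). Its call was lost without vte1 replicate 1, vte1 replicate 2 or vte2 replicate 3, at adjusted p of 0.21, 0.23 and 0.26.

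Other wall genes moved less as groups. Of 12 measured expansins 3 were called higher, EXPA7, EXPA18 and EXPB3 (0.89 ± 0.25, adjusted p = 0.045), against the background of 3.25%. EXPA7 and EXPA18 had already been counted as root markers. The median of the expansin list was 0.05 (-0.06 after median centring of the arrays). None of the 12 was called without vte1 replicate 2 or vte2 replicate 3, 1 was called without vte1 replicate 1, and 2 were higher and 2 lower without vte1 replicate 3. Without vte2 replicate 2, 2 of 8 xyloglucan endotransglucosylases, enzymes that cut and rejoin wall glucans, were called. With all arrays XTH32 was the only one called, against the same background. Its signals were 339.6, 423.4 and 354.6 in vte1 and 662.6, 882 and 2138.5 in vte2 (1.49 ± 0.38, adjusted p = 0.026). The call was lost without vte1 replicate 1, vte1 replicate 2 or vte2 replicate 3, at adjusted p of 0.1, 0.069 and 0.18. AT2G47540, of a family of secreted pollen allergen and extensin-like proteins, had 60.4, 97.4 and 869.2 against 1265.5, 1444.6 and 3038.4 and differed by 3.12 ± 0.58 (adjusted p = 0.0027).

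Of 11 measured nuclear genes of photosynthesis 7 were called higher in vte2, against the background of 3.25%. Light-harvesting proteins capture light, photosystem subunits carry electrons and the Calvin cycle fixes carbon dioxide, and seedlings build these complexes as the cotyledons green. None of the 11 was called lower, and the list had a median difference of 0.89. Summed signals were 22976.8, 24074.7 and 29668.6 in vte1, 49162.2, 49459.7 and 47693.8 in vte2, and 42313.2, 43232.6 and 38466.1 in wild type. The mutants did not overlap, and the 3 vte2 arrays lay close together. The count stayed between 5 and 7 with any 1 of the 6 arrays left out.

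PSAE-1 (AT4G28750), a subunit on the stromal side of photosystem I, had signals of 1330.1, 1017.4 and 2989.2 in vte1 against 8891.4, 7547.1 and 7393.7 in vte2. The lowest vte2 value was well above the highest vte1 value, and the difference was 2.30 ± 0.30 (adjusted p = 0.00013). LHCB4.2 (AT3G08940), an antenna protein of photosystem II, had 589, 608.2 and 1174.5 against 3079.4, 2709.4 and 3605.1 (2.02 ± 0.25, adjusted p = 9.3e-05). PSAN (AT5G64040), a subunit of photosystem I on the lumen side, had 344.3, 514.5 and 1071.8 against 1542.4, 1742.3 and 3510 (1.83 ± 0.33, adjusted p = 0.0021). These 3 genes kept their calls with any 1 of the 6 arrays left out. LHCB4.1 (AT5G01530), a second gene for that antenna protein, had 1712.8, 1925.7 and 4561.4 against 5670.6, 6568.8 and 7423.5 (1.39 ± 0.29, adjusted p = 0.0067, and 0.055 and 0.053 without vte1 replicates 1 and 2). LHCB4.3, a further relative, was not called, with a difference of -0.20 ± 0.36 (adjusted p = 0.86).

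All 4 measured Calvin cycle genes lay above 0, with a median difference of 1.18. Against the background of 3.25% called higher, only PRK (AT1G32060), which makes the carbon dioxide acceptor, was called. Its signals were 345.5, 608.2 and 1897.1 in vte1 and 2405.2, 2105.2 and 3476.4 in vte2, a difference of 1.78 ± 0.42 (adjusted p = 0.015). The gap between the groups was narrow because vte1 replicate 3 came close to vte2. Without that array all 4 genes were called. The replicate block gave 3, and none was called without vte1 replicate 1, vte1 replicate 2 or vte2 replicate 3. RCA, the activase of Rubisco, differed by 1.31 ± 0.38 (adjusted p = 0.055) with all arrays.

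Of 68 measured plastid-encoded genes 3 were called higher and none lower, although 60 lay above 0 and the median was 0.46. The share called was thus close to the background of 3.25%. The gene for the large subunit of Rubisco, rbcL, had signals of 376.9, 403.7 and 1030.3 in vte1 and 1901.6, 1458.3 and 1508.5 in vte2 (1.54 ± 0.32, adjusted p = 0.0067, and 0.054 and 0.053 without vte1 replicates 1 and 2). The photosystem I genes psaJ and psaB differed by 1.18 ± 0.29 (adjusted p = 0.023) and 1.16 ± 0.30 (adjusted p = 0.032). Both lost their call without vte1 replicate 2 (0.16 and 0.14) and without vte2 replicate 1 (0.053 and 0.16), psaJ also without vte1 replicate 1 (0.14) or vte2 replicate 3 (0.12), and psaB without vte1 replicate 3 (0.054). With the replicate block 5 of the 68 were called, and without single arrays between 0 (vte1 replicate 2) and 9 (vte1 replicate 3), with 1 without vte1 replicate 1 or vte2 replicate 1 and 2 without vte2 replicate 3.

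Chlorophyll synthesis showed the same direction. All 8 measured genes lay above 0, with a median difference of 0.83, and 4 were called, against the background of 3.25% called higher. PORB (AT4G27440), the light-driven protochlorophyllide oxidoreductase, had signals of 655, 778.2 and 5529.5 in vte1 and 9897.4, 11181.2 and 6964.6 in vte2. On replicates 1 and 2 vte1 lay far below wild type (9285 ± 1207, SD, n = 3), while its replicate 3 lay near vte2, and the difference was 2.67 ± 0.74 (adjusted p = 0.04). The PORB call held only without vte1 replicate 3 (adjusted p = 0.0012), and lay at 0.076 to 0.21 without any other of the 6 arrays. HEME2 (AT2G40490), uroporphyrinogen decarboxylase, and CHLM (AT4G25080), a methyltransferase of the magnesium branch, differed by 0.84 ± 0.22 (adjusted p = 0.029) and 0.83 ± 0.24 (adjusted p = 0.046). Among the leave-outs, HEME2 was called only without vte1 replicate 3 and CHLM only without vte1 replicate 3 or vte2 replicate 3. The count of 4 became 1 without vte1 replicate 1, vte1 replicate 2, vte2 replicate 1 or vte2 replicate 2, 2 without vte2 replicate 3, 6 without vte1 replicate 3, and 2 after median centring.

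The fourth gene, AT1G74470, encodes the geranylgeranyl reductase that makes the phytyl chain of chlorophyll and of tocopherols. It was also the only called member of the 3 measured genes of tocopherol and prenylquinone metabolism, against the background of 3.25% called higher. Its signals were 1178.4, 1347.7 and 5117.5 in vte1, 8937, 6545.3 and 8723.4 in vte2, and 7971.7, 7297.8 and 9261.5 in wild type. The difference between the mutants was 1.98 ± 0.36 (adjusted p = 0.0023) and remained called with any 1 of the 6 arrays left out. NDC1 (AT5G08740), a plastoglobule dehydrogenase that reduces prenylquinones, had 240.8, 287 and 504.9 against 355.6, 440.2 and 515.1, with overlapping groups (0.38 ± 0.31, adjusted p = 0.6). AT1G78620, the kinase that recycles phytyl phosphate for tocopherol synthesis, had 562.3, 482.1 and 570.8 against 550.5, 742.7 and 732.4 (0.31 ± 0.29, adjusted p = 0.66).

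**Figure D2:**
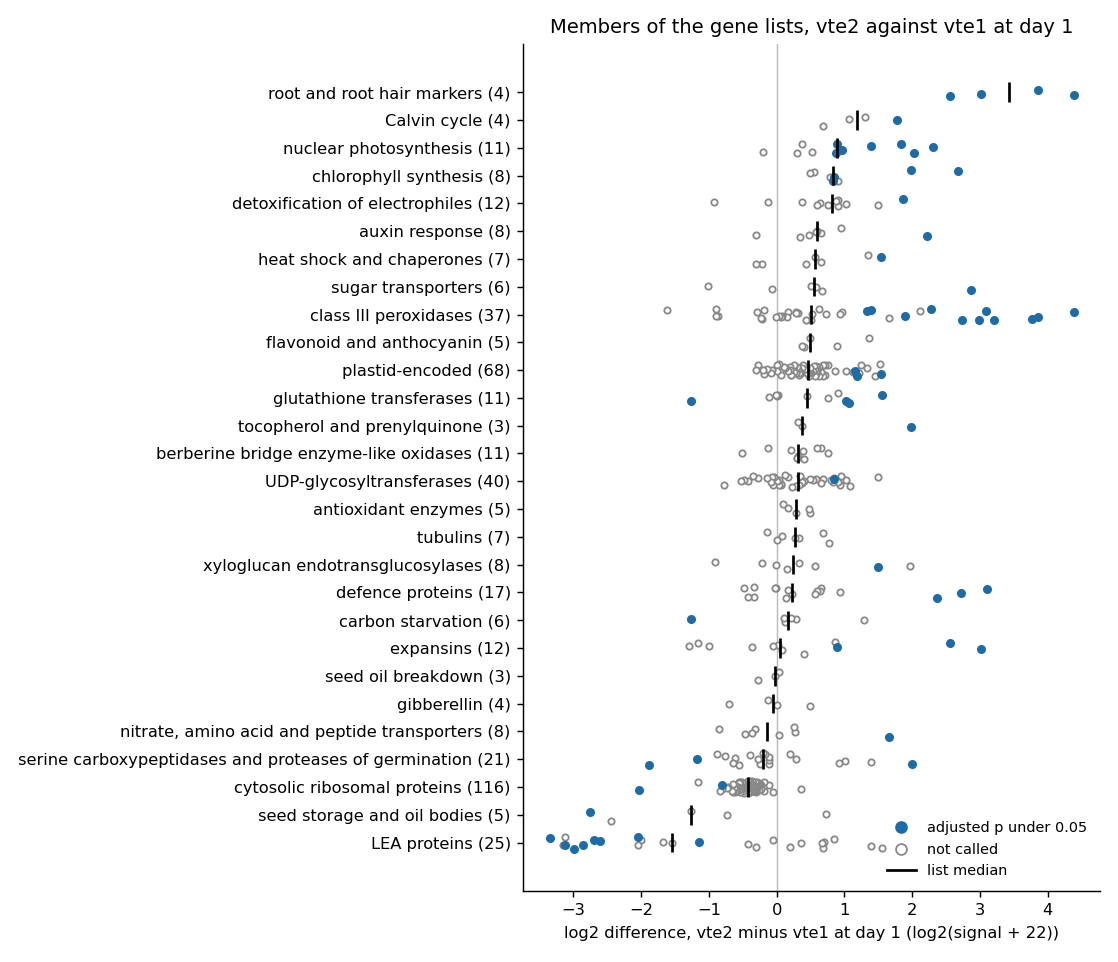
Log2 difference, vte2 minus vte1 at day 1, of each measured member of the gene lists with at least 3 measured members (number in brackets); filled points were called at an adjusted p under 0.05 and the black bar is the list's median. Root and root hair markers have the highest median (3.43) and LEA proteins the lowest (-1.55).

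In the opposite direction, seed transcripts were more abundant in vte1. Late embryogenesis abundant (LEA) proteins build up as seeds dry and are thought to protect other proteins and membranes. Of 25 measured LEA genes 8 were called lower in vte2 and none higher, with a median difference of -1.55, where 1.04% of probe sets with a single named gene were called lower. Summed LEA signals were 107286.1, 121297.3 and 57254.6 in vte1, 34049.4, 33734.2 and 34798.6 in vte2, and 45591.4, 45012.5 and 25450.6 in wild type. All 3 vte1 arrays were above all others, while vte2 lay within the wild-type range. The number of lower LEA calls fell to 2 without vte1 replicate 1 or 2, to 5 without vte2 replicate 1 and to 3 without vte2 replicate 2 or 3, and without vte1 replicate 3 it was 14, with 2 members called higher.

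AT5G66780, on the LEA list, had signals of 6463.3, 8252.2 and 1898.1 in vte1 and 603.8, 530.1 and 260.4 in vte2, a difference of -3.35 ± 0.86 (adjusted p = 0.026). LEA4-5 (AT5G06760), linked to the tolerance of water deficit, had 10964.8, 12017.4 and 1605.3 against 792.6, 801.9 and 454.5 (-3.13 ± 0.80, adjusted p = 0.027). AtLEA4-1 (AT1G32560), a member of the same group, had 6510.7, 7803.2 and 1472.8 against 476.8, 576.4 and 484.4 (-2.99 ± 0.69, adjusted p = 0.013). In each of these genes vte1 replicate 3 was the lowest vte1 array but still above every vte2 array. Wild-type replicate 3 was also far below its partners, with 102.5 against 1394.8 and 1431.7 for AtLEA4-1 and 103.9 against 2025.7 and 1900.9 for LEA4-5. AT4G21020, also on the LEA list, had 528.1, 446.8 and 317.6 in vte1 and 65.5, 18.3 and 88.3 in vte2 (-2.60 ± 0.48, adjusted p = 0.0025), called with any 1 of the 6 arrays left out. Without vte1 replicate 1, the adjusted p was 0.11 for AT5G66780, 0.14 for LEA4-5 and 0.077 for AtLEA4-1, and without vte1 replicate 2 it was 0.14, 0.16 and 0.093. Without vte2 replicates 1, 2 and 3, LEA4-5 had 0.055, 0.055 and 0.11, and AT5G66780 had 0.056 and 0.12 without the latter 2. The LEA calls of AT3G02480 (-2.85 ± 0.81, adjusted p = 0.047) and AT3G17520 (-2.70 ± 0.75, adjusted p = 0.043) held only without vte1 replicate 3.

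The direction was not shared by the whole LEA list, of which 8 members lay above 0. None of these was called, and the largest difference was that of M10 (1.55 ± 0.60, adjusted p = 0.17). Also among them were M17 (0.85 ± 0.75, adjusted p = 0.63) and the cold-induced dehydrin genes LTI30 (1.39 ± 0.49, adjusted p = 0.12) and COR47 (0.70 ± 0.49, adjusted p = 0.53). In wild type, LTI30 and COR47 were higher at day 3 than at day 1 by 3.01 and 2.26 on the log2 scale. M10 and M17 changed by -1.41 and -0.55, and the list's median change was -0.66.

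Other genes of seeds accompanied them. BETA-VPE (AT1G62710), a vacuolar processing enzyme that matures seed storage proteins, had signals of 3272, 2822 and 1263.6 in vte1, 437.5, 348.4 and 204.1 in vte2, and 735.9, 949.8 and 517.6 in wild type. All vte1 arrays lay above all wild-type and vte2 arrays, and the difference was -2.76 ± 0.35 (adjusted p = 0.0001). BETA-VPE remained called with any 1 of the 6 arrays left out. It was the only called gene of 5 measured on the list for seed storage and oil bodies, where 1.04% of named probe sets were called lower. This list had a median of -1.26 and gave 3 calls without vte1 replicate 3. GAMMA-VPE alone of the 5 lay above 0 (0.73 ± 0.24, adjusted p = 0.091). DELTA-VPE (AT3G20210), a relative expressed in seed coats and the only measured marker of endosperm and seed coat, had 3552.3, 3261.8 and 4477.6 against 2099.4, 1526.8 and 1079.1 (-1.29 ± 0.34, adjusted p = 0.033). DELTA-VPE was not called without vte1 replicate 1, 2 or 3, or vte2 replicate 2 or 3, at adjusted p of 0.052 to 0.18.

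The list for seed storage and oil bodies left out the next 2 genes, although both are tied to oil bodies. AT2G25890, of the oleosin family of oil body proteins, had signals of 619.3, 729.4 and 150 in vte1 and 64.8, 61.1 and 24.4 in vte2 (-2.65 ± 0.53, adjusted p = 0.0051). AT1G65090, a seed lipid droplet protein, had 464.3, 689 and 675.2 against 180.5, 191.6 and 14.8 (-2.41 ± 0.54, adjusted p = 0.011, and 0.059 and 0.057 without vte1 replicate 2 and vte2 replicate 3). For AT1G65090, vte1 replicate 3 was not the lowest vte1 array. ATOEP16-2 (AT4G16160), a channel protein of the plastid outer envelope that is abundant in seeds, had 4274, 5039.9 and 1185.1 against 471.9, 575.6 and 85.8 (-3.23 ± 0.73, adjusted p = 0.012). ATOEP16-2 lost its call without vte1 replicate 1, vte1 replicate 2 or vte2 replicate 3, at adjusted p of 0.07, 0.085 and 0.085. AT5G07330, for which no role is given here, had the largest difference of the named genes in this direction, -3.40 ± 0.93 (adjusted p = 0.037), with signals of 2901.9, 2894.2 and 400.9 against 241.8, 214.1 and 27. The call of AT5G07330 was lost without vte1 replicates 1 or 2 or vte2 replicates 2 or 3, at adjusted p of 0.18, 0.19, 0.053 and 0.21.

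Proteases of germinating seeds had few calls. Of 21 measured serine carboxypeptidases and related proteases 2 were lower and 1 higher in vte2, where 1.04% and 3.25% of named probe sets were, against 4 lower and 3 higher with the replicate block and 3 lower and 4 higher without vte1 replicate 3. The carboxypeptidase gene scpl48 (AT3G45010) had signals of 4717.3, 5120.7 and 5688.1 in vte1 and 2751.8, 2428.8 and 1723.6 in vte2, narrow ranges that did not overlap (-1.18 ± 0.21, adjusted p = 0.002). Its relative scpl44 (AT1G43780) had 9731, 9609 and 6695.4 against 3608.8, 4138.3 and 814.9 (-1.88 ± 0.46, adjusted p = 0.019). The subtilase gene SBT4.12 (AT5G59090) went the other way, by 1.99 ± 0.49 (adjusted p = 0.02). The calls of scpl44 and SBT4.12 were lost without vte1 replicate 1 (0.083 and 0.12) or vte2 replicate 3 (0.099 and 0.14), and that of scpl44 without vte1 replicate 2 (0.089). AT3G54940, of the papain family of proteases, had 3548, 3722.9 and 787.5 against 382.4, 241.4 and 138.2, and its call (-3.10 ± 0.84, adjusted p = 0.037) held only without vte1 replicate 3. None of the 3 measured genes of 21 listed for seed oil breakdown was called, which does not show that the mutants were alike. Isocitrate lyase, ICL (AT3G21720), an enzyme of the glyoxylate cycle, had 32028.5, 38796.5 and 53815.6 against 33591.1, 31059.9 and 36332.1, with overlapping groups and a difference of -0.27 ± 0.46 (adjusted p = 0.84).

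Cytosolic ribosomal protein genes lay almost all on one side. Of 116 measured members 115 lay below 0, with a median difference of -0.43 (-0.25 after quantile normalization and -0.54 after median centring), but only 2 were called lower, a share near the background. The median log2 level of the list was 13.95, 13.94 and 13.81 in vte1, 13.55, 13.67 and 13.16 in vte2, and 13.77, 13.69 and 13.41 in wild type. The mutants did not overlap, but most members did not pass the test singly. With the replicate block 10 of the 116 were called, 13 without vte1 replicate 3, and 1 without vte1 replicate 1, vte1 replicate 2, vte2 replicate 2 or vte2 replicate 3. AT5G39850, for a protein of the small subunit, differed most, with 2292.3, 1912.3 and 696.9 in vte1 against 354.3, 458.9 and 241.1 in vte2 (-2.03 ± 0.34, adjusted p = 0.0013).

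**Figure D3:**
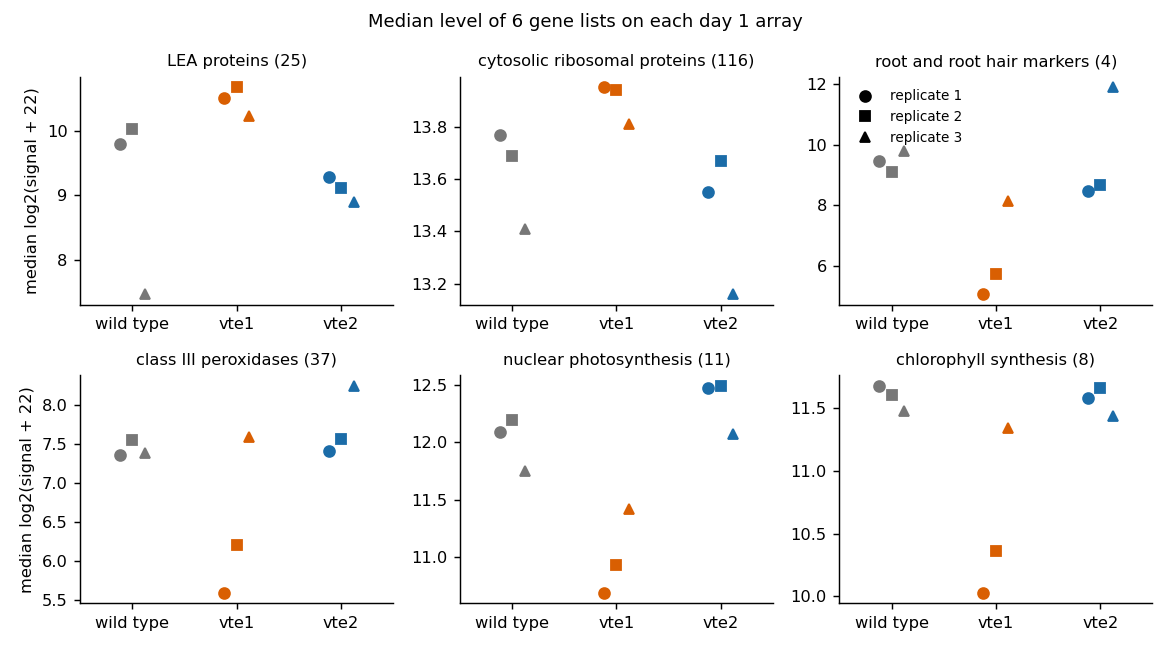
Median log2(signal + 22) of 6 gene lists (number of measured members in brackets) on each day 1 array; colour gives the genotype and point shape the replicate. Root and root hair markers run from 5.05 to 8.14 in vte1 and from 8.45 to 11.89 in vte2, and the cytosolic ribosomal proteins from 13.81 to 13.95 in vte1 and from 13.16 to 13.67 in vte2.

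Among transporters and signalling genes, SWEET11 (AT3G48740), which exports sucrose from cells, was higher in vte2. Its signals were 119.9, 83.1 and 216.9 in vte1, 1209.9, 909.9 and 1193.2 in vte2, and 2092.3, 1451.6 and 673.4 in wild type. Neither mutant's values approached the other's, and the difference was 2.87 ± 0.34 (adjusted p = 6.1e-05), called with any 1 of the 6 arrays left out. The other 5 measured sugar transporters were not called, where 3.25% of named probe sets were called higher. AT2G26690, of the nitrate and peptide transporter family, had 35.8, 57.5 and 84.5 against 224.9, 167.3 and 305.2 (1.66 ± 0.34, adjusted p = 0.0064). It was the only called gene of 8 on its list, against the same background. GH3.3 (AT2G23170), which conjugates auxin to amino acids, had 109, 134.3 and 641.8 in vte1 against 1109.7, 1093.9 and 1058.7 in vte2 and 1277.7, 1315.1 and 1308.3 in wild type. Its vte2 and wild-type arrays were nearly level while vte1 spread widely, and the difference was 2.22 ± 0.48 (adjusted p = 0.009, and 0.07 and 0.069 without vte1 replicates 1 and 2). AT2G14900, of the gibberellin-regulated family of small secreted proteins, had 92.5, 68.9 and 294.8 against 1025.4, 1396 and 1388.7 (3.10 ± 0.35, adjusted p = 3.7e-05).

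AT1G47400, a peptide gene of iron-deficiency signalling, had signals of 184.4, 102.2 and 322.5 in vte1, 3364.7, 3604.9 and 431 in vte2, and 1339.4, 1325.5 and 62.9 in wild type. Replicate 3 of vte2 lay just above the highest vte1 array, and replicate 3 of wild type lay below all vte1 arrays. The difference of 3.10 ± 0.82 (adjusted p = 0.033) was called only without vte1 replicate 3 or vte2 replicate 3, and had an adjusted p of 0.1 to 0.16 without any other of the 6 arrays. AT4G34600, which encodes a peptide hormone that guides the Casparian strip of roots, went the other way, with 405.5, 375.8 and 153.1 against 36.6, 39.9 and 9.3 (-2.68 ± 0.42, adjusted p = 0.00063). AT2G21045, an arsenate reductase of roots, had 39.4, 7.4 and 276 against 442.2, 370.2 and 1216.3 (2.90 ± 0.57, adjusted p = 0.0045).

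The list of defence proteins included 3 called members of 17, all higher in vte2, where 3.25% of named probe sets were. Without vte1 replicate 3, 6 were called. Members were matched by gene name, and the 17 include PDF1A and PDF1B, which are peptide deformylases and not defensins. Neither was called. The defensin gene PDF1.4 (AT1G19610) had signals of 60.3, 2.8 and 7.6 in vte1, 295.7, 231.6 and 456.7 in vte2, and 27.8, 34.1 and 63.5 in wild type. Here vte1 and wild type overlapped and vte2 stood above both. The difference between the mutants was 3.11 ± 0.39 (adjusted p = 0.0001), called with any 1 of the 6 arrays left out. In AT5G22580, of a family of stress-responsive barrel proteins, vte2 also stood above both, with 41, 8 and 3.4 in vte1, 286.6, 521.6 and 231.2 in vte2 and 62.7, 58.2 and 67.1 in wild type (3.26 ± 0.35, adjusted p = 2.2e-05 between the mutants). The lectin gene JAL22 (AT2G39310) had 97.5, 61.2 and 523.6 against 723.3, 704.2 and 2846.7 (2.72 ± 0.52, adjusted p = 0.0035), with wild type at 980 ± 86.4 (SD, n = 3). PDF2.5 (AT5G63660), another defensin, differed by 2.37 ± 0.49 (adjusted p = 0.007, and 0.056 without vte1 replicate 1). THI2.2 (AT5G36910), a thionin that is not on the list, differed by 2.95 ± 0.64 (adjusted p = 0.0088). THI2.2 was not called without vte1 replicate 1, vte1 replicate 2 or vte2 replicate 3, at adjusted p of 0.058, 0.076 and 0.062. AT4G22212, of the defensin-like family but also not on the list, had 145, 132.3 and 415.1 against 1780.1, 1851.8 and 2564.6 (3.20 ± 0.39, adjusted p = 8.1e-05).

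Other large differences belonged to enzymes or families without a common list. AT4G23680, of a family of polyketide cyclase-like and latex proteins, had signals of 725.8, 1058.8 and 4474 in vte1 and 11553.4, 11850.3 and 14301.6 in vte2 (3.03 ± 0.44, adjusted p = 0.00034). AT1G29670, a GDSL-type lipase, had 101.2, 157.8 and 1244.3 against 2207.3, 1901.5 and 5021.2 (3.20 ± 0.57, adjusted p = 0.002). In both genes vte1 replicate 3 was the highest vte1 array by a wide margin, and in both the calls held with any 1 of the 6 arrays left out. AT5G24130 and AT1G27461, for which no role is given here, were lower in vte2 by 2.79 and 2.83 units of log2, with adjusted p of 0.014 and 0.021. Neither was called without vte1 replicate 1, vte1 replicate 2 or vte2 replicate 3 (adjusted p of 0.075 to 0.14).

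Glutathione transferases, which attach glutathione to reactive compounds, moved in both directions. Of 11 measured, GSTU28, GSTU18 and GSTU22 were called higher in vte2 and GSTF4 lower, where 3.25% and 1.04% of named probe sets were. GSTU22 (AT1G78340) had signals of 896.1, 768.5 and 849.5 against 1659.7, 1626.8 and 1873.3 without overlap, with a difference of 1.02 ± 0.26 (adjusted p = 0.026). GSTF4 (AT1G02950) had 131, 148.1 and 150.5 against 46, 70 and 30.2 (-1.26 ± 0.30, adjusted p = 0.017). GSTU28 (AT1G53680) differed by 1.55 ± 0.31 (adjusted p = 0.0049), called with any 1 of the 6 arrays left out. The calls of GSTU22 and GSTU18 (1.06 ± 0.30, adjusted p = 0.046) held only without vte1 replicate 3, and that of GSTF4 was lost without vte1 replicate 1 (0.05), vte1 replicate 2 (0.071) or vte2 replicate 3 (0.1).

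Of 12 genes for the detoxification of electrophiles only the methyltransferase gene AT2G41380 was called, at 1.86 ± 0.41 (adjusted p = 0.0093). The background was 3.25% called higher, and the list's median was 0.81. None of the 12 was called without vte1 replicate 1, vte1 replicate 2 or vte2 replicate 3, while 4 were called without vte1 replicate 3 and 2 with the replicate block. Among 40 UDP-glycosyltransferases UGT76E11 alone was called (0.85 ± 0.22, adjusted p = 0.031), a share under the background of 3.25%, and without single arrays no member was called apart from 6 without vte1 replicate 3, while the replicate block gave 3. The small heat shock gene AT2G29500 differed by 1.54 ± 0.43 (adjusted p = 0.045), with overlapping levels in vte1 (93.1, 26.8 and 49.2) and wild type (25.5, 62.9 and 40.7). It was the only one called of 7 chaperone genes, against the same background. It was not called without vte1 replicate 2 (0.24), vte1 replicate 3 (0.05) or vte2 replicate 3 (0.29), and 2 of the 7 were called without vte2 replicate 2.

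The direction of the difference at day 1 was then set beside the change of wild type between days 1 and 3, which was called for 7544 probe sets (47.4%), 24.6% higher and 22.8% lower at day 3. The 2 comparisons share no array, but both come from the same fit. They share each probe set's estimate of the spread, so their calls are not independent. Of the 657 probe sets higher in vte2 than in vte1, 373 (56.8%) were called higher at day 3 in wild type and 57 (8.68%) lower. Of the 174 lower in vte2, 87 (50%) were called lower at day 3 and 12 (6.9%) higher. The median wild-type change was 1.16 in the former set and -0.84 in the latter, against 0.08 over all probe sets. Across the 15922 probe sets, which are not independent replicates, the 2 differences correlated at r = 0.36, and at 0.27, 0.24 and 0.37 for pairs 1, 2 and 3 taken singly. PSAE-1, LHCB4.2, PSAN and PRK were higher by 3.01, 3.83, 4.07 and 3.67 in wild type at day 3, while LEA4-5 and BETA-VPE lay 1.74 (adjusted p = 0.082) and 1.28 (adjusted p = 0.0053) log2 units below day 1. The root genes AT1G30870, AT3G49960 and EXPA7 were not called between the days in wild type, with differences of -0.05, -0.69 and -0.63 and adjusted p of 0.96, 0.53 and 0.45. Whether the mutants differed in stage of development was not tested.

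**Figure D4:**
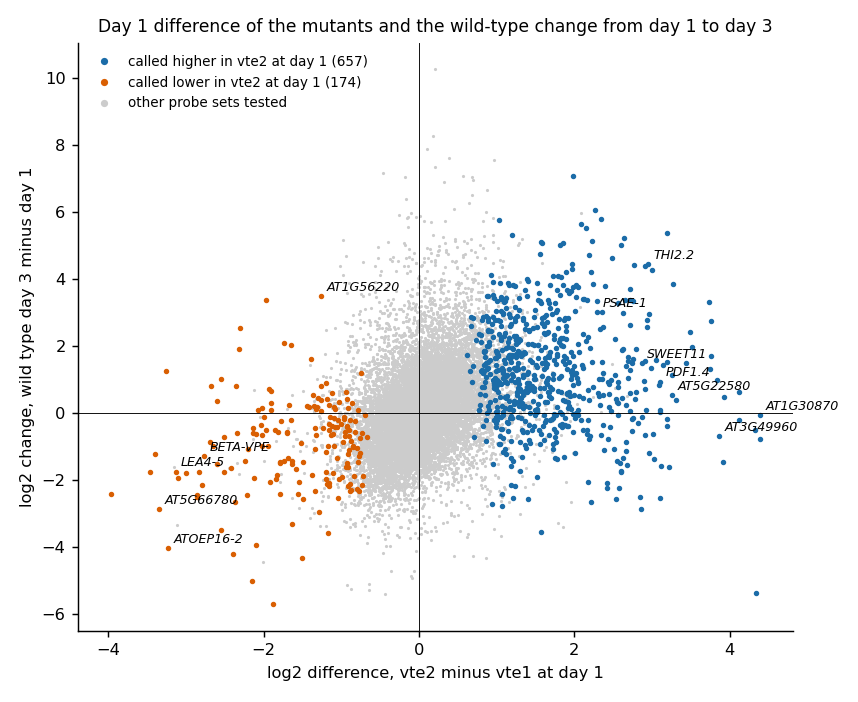
Log2 difference, vte2 minus vte1 at day 1 (horizontal axis), and log2 change of wild type from day 1 to day 3 (vertical axis) for 15922 probe sets; blue points were called higher and orange points lower in vte2 at day 1. Of the blue points 77.6% lie above 0 on the vertical axis, against 52.9% of all probe sets, and 75.9% of the orange points lie below 0, against 47.1%.

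The probe sets that changed most in wild type were then taken alone. Of the 200 with the largest rise, 39 were called higher in vte2, where 4.13% of all probe sets were, 157 lay above 0 and the median difference was 0.48. Their median log2 level was 5.90, 5.77 and 6.20 in vte1, 6.18, 6.06 and 6.81 in vte2, and 6.12, 5.87 and 6.03 in wild type at day 1, against 11.02 to 11.17 in wild type at day 3. All day 1 arrays thus lay far from the day 3 level, and vte2 replicate 3 lay nearest to it. Of the 200 largest falls, 12 were called lower in vte2, where 1.09% of all probe sets were, and 7 higher, with 146 below 0 and a median difference of -0.38. Their median level was 10.92, 10.90 and 10.75 in vte1, 10.85, 10.68 and 10.07 in vte2, and 7.33 to 7.70 in wild type at day 3.

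Few of the day 1 calls recurred at day 3. There, 560 probe sets (3.52%) separated vte2 from vte1, 403 higher (2.53%) and 157 lower (0.986%), on arrays that do not enter the day 1 contrast. Each probe set's estimate of the spread was again shared between the 2 contrasts. Of the 657 probe sets higher in vte2 at day 1, 41 were called higher at day 3, which is 6.24% of the day 1 set and 10.2% of the day 3 set, and 15 were called lower (2.28% and 9.55%). Of the 174 lower ones, 4 were called lower at day 3 (2.3% and 2.55%) and 2 higher. Across all probe sets the 2 differences correlated at r = -0.01. The change of the difference between the days was called for 842 probe sets (5.29%), 611 lower (3.84%) and 231 higher (1.45%) at day 3. Of the 657 higher at day 1, the change was called lower for 385 and higher for 1, and of the 174 lower at day 1 it was called higher for 51. These shares lean on the day 1 arrays that chose the sets. The 842 became 1285 with the replicate block and 548, 453 and 1708 without vte1 replicates 1, 2 and 3 of day 1.

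Single genes showed how the contrast changed. AT1G30870 reached 1964.4, 1757.2 and 1891.6 in vte1 against 1406.9, 1180.2 and 1346.5 in vte2 at day 3, so that the difference of 4.39 at day 1 became -0.51 ± 0.76 (adjusted p = 0.84). SWEET11 reached 4833, 4673.7 and 4182.2 in vte1 against 2420, 2256.4 and 2973.8 in vte2 (-0.84 ± 0.34, adjusted p = 0.21). For both genes all vte1 arrays of day 3 lay above all vte2 arrays, but neither difference was called, so a reversal was not shown. How many of all probe sets separate in this way at day 3 was not counted. PDF1.4 was one of the genes that differed on both days, with 16.8, 25.8 and 37.1 in vte1 against 4283.2, 5020.6 and 5489 in vte2 at day 3 (6.69 ± 0.39, adjusted p = 1.1e-08). AT5G22580 remained higher in vte2 as well, by 1.63 ± 0.35 (adjusted p = 0.011). AT1G56220, of the dormancy and auxin associated family, changed direction: vte1 exceeded vte2 at day 1, with 1039.5, 1729.1 and 1233.6 against 444.3, 391.3 and 865.7 (-1.26 ± 0.34, adjusted p = 0.034), and fell short of it at day 3, with 1905.7, 1850.9 and 2222.8 against 4337.6, 6303.7 and 4202.9 (1.28 ± 0.34, adjusted p = 0.039). Its call at day 1 was lost without vte1 replicates 1 or 2 or vte2 replicates 1 or 2, at adjusted p of 0.054, 0.19, 0.12 and 0.14.

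**Figure D5:**
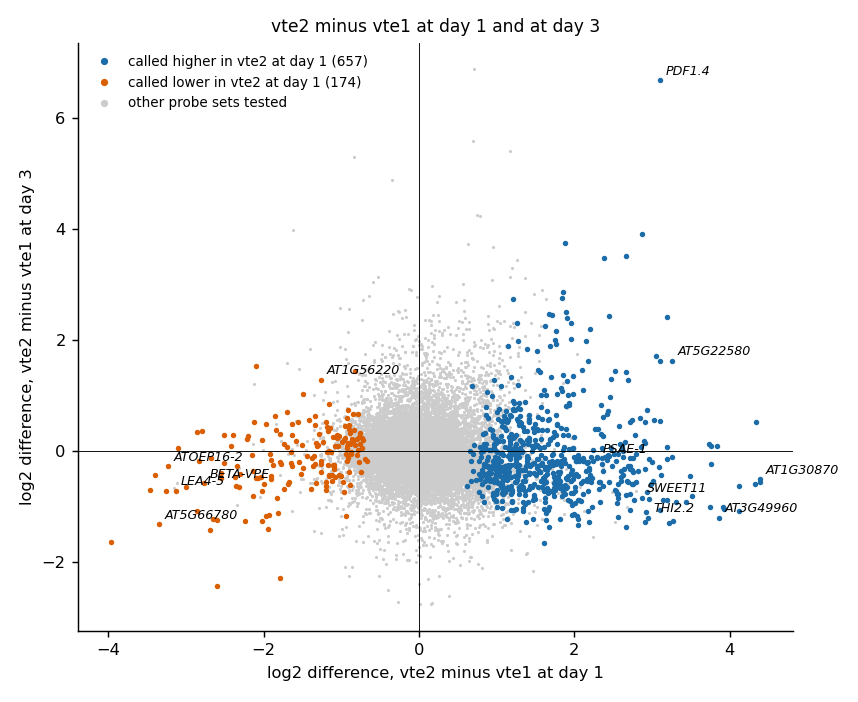
Log2 difference, vte2 minus vte1, at day 1 (horizontal axis) and at day 3 (vertical axis) for 15922 probe sets; blue points were called higher and orange points lower in vte2 at day 1. The blue and orange sets have median day 3 differences of -0.24 and -0.11, and PDF1.4 lies high on both axes (3.11 and 6.69).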

How the data were processed

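The authors deposited linear intensity values, summarised per probe set with MAS5 per the submitters' processing notes. Version, scaling target and filters: not given in the sources used here. Trimmed means (2% off each end) of 498.1 to 499.8 show that arrays had been scaled alike. The 64 control probe sets of 22810 were left out, 22 was added (the 20th percentile of all signals was 21.9) before log2, and probe sets with a mean above the 30th percentile were kept. Log2 differences therefore understate dim genes. Titles gave the groups and the replicate numbers, and describe biological replicates. All 18 arrays entered 1 limma 3.58.1 model (R 4.3.3, eBayes with trend; package data.table, version 1.17.8) of 6 group means. P-values are two-sided and Benjamini-Hochberg adjusted per contrast, with 0.05 as the threshold for a call. An exact permutation test of 3 against 3 cannot go below 0.1. On simulated data for this comparison (15922 probe sets, 200 changed, 5 simulations), 86.4% of 4-fold and 29.6% of 2-fold changes were recovered, with 4.91% false calls. The simulated noise was independent between arrays, with a single spread per probe set pooled over all 18 arrays. These rates therefore need not hold for the real arrays, where spreads may be unequal and arrays may deviate together.

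Deviations from the group means of same-numbered vte1 and vte2 arrays correlated at r = 0.256, 0.344 and 0.515. The main fit was not paired. The numbers entered only the alternative block fits, the fits without a replicate number and the descriptions by pair. Different numbers gave -0.431 to 0.319. The highest of these, between vte1 replicate 1 and vte2 replicate 2, exceeded 0.256, so replicates 1 and 2 were not resolved as pairs. The block within each day was added after the data had been seen.

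Genes were named from the platform annotation: 13513 probe sets had 1 gene, 503 several and 8730 none, and 13436 of the former matched a RefSeq locus (TAIR10.1). The probe set with the highest mean stood for a listed gene. Named genes were the 15 largest called and non-overlapping differences each way, up to 4 called members of each list (otherwise its largest), the 5 called genes each way with the largest change between days, and the tocopherol genes. Members, lists and tests were chosen with earlier results of these data known. List loci were edited after the probe annotation had been read. Figures used Python 3.11.15 and matplotlib 3.10.9.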

Additional observations from a re-analysis of the deposited data

Results flagged for a closer look

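The vte2 minus vte1 difference itself changed between day 1 and day 3 by a test of that change in the same limma model (adjusted p under 0.05), for 842 probe sets in all. Values below are day 3 minus day 1 differences on the log2 scale, and no explanation was tested. Most of these genes were named for a called day 1 difference, which enters the change with the opposite sign. The direction of their changes therefore leans on that choice. Without replicate 1 or replicate 2 in every group, the 842 became 2 and 5. Among root and wall genes the change was -4.9 for AT1G30870, -5.06 for AT3G49960, -4.08 for AT5G51890, -3.58 for AT3G01190, -3.55 for EXPA7, -3.33 for EXPA18 and -3.56 for AT2G47540. Among genes of the chloroplast it was -2.42 for PSAE-1, -2.21 for LHCB4.2, -1.62 for LHCB4.1, -2.02 for PSAN, -2.24 for PRK, -1.68 for rbcL, -2.4 for AT1G74470, -1.11 for HEME2 and -1.74 for TAPX, the ascorbate peroxidase of thylakoids. Defence genes changed by -4.15 for THI2.2, -3.35 for AT4G22212, -2.85 for JAL22 and -2.73 for PDF2.5, whereas PDF1.4 changed by 3.58. Transport, signalling and enzyme genes changed by -3.71 for SWEET11, -2.06 for AT2G26690, -2.78 for GH3.3, -2.57 for AT2G14900, -3.12 for AT1G29670, -2.47 for AT4G23680, -1.9 for GSTU28 and -2.09 for CHIL, a chalcone isomerase-like protein. The change was positive for BETA-VPE (2.18), scpl48 (1.17), AT5G39850 (2.22), AT4G34600 (2.55), AT1G56220 (2.54), ICL (2.8) and the oxidase gene AT1G26380 (3.5).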

How the results depend on the processing

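Of the 65 called genes named, 65 kept their call with either replicate block and with the GAPDH ratio as a covariate, 52 to 61 under the other scalings, pseudocounts (8 and 64), no filter and no variance trend, and all 53 of them that passed the 50th percentile filter kept it. The 6 arrays alone kept 13, the 9 arrays of day 1 kept 26, and leaving out replicate 1, 2 or 3 in every group kept 7, 7 and 63. Leaving out single arrays kept 26 to 61. Median centring moved the median of all differences from 0.02 to -0.09 and the share of higher calls from 79.1% to 71.2%. ICL alone changed sign, to 0.1 after quantile normalization. The day 1 count of 831 became 102 with 6 arrays, 372 with 9 arrays, 1256 with the replicate block (1709 with the block within each day), 370 to 1854 without single arrays and 49 to 2923 without a replicate number in every group. The 842 changes between days became 1285 with the replicate block (1890 within each day), 1326 with the GAPDH ratio, 453 to 1708 without single arrays and 2 to 3154 without a replicate number. The 560 calls at day 3 became 1270 with the block within each day, 845 with the GAPDH ratio and 29 to 2229 without a replicate number. Changes between days could not be run on 6 or 9 arrays. The cause of these shifts was not tested, and some of these fits held fewer arrays. Arrays without detection calls leave the lowest signals without an order.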

Other observations

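Several groups of genes separated the mutants in no member that passed the test by limma at day 1. None of the 5 measured antioxidant enzymes was called, and all 5 lay above 0, with a median log2 difference of 0.28. The largest was that of TAPX, with signals of 76.1, 114.9 and 84.2 in vte1 and 138.6, 95.9 and 188.4 in vte2, overlapping ranges that differed by 0.49 ± 0.32 (adjusted p = 0.49). None of the 5 flavonoid and anthocyanin genes was called, although CHIL (AT5G05270) did not overlap between the groups, with 928.1, 731.3 and 1283.1 against 2641.8, 3398 and 1724.8 (1.36 ± 0.41, adjusted p = 0.061).

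None of the 4 gibberellin genes, 7 tubulins and 11 berberine bridge enzyme-like oxidases was called either. The gibberellin receptor gene GID1A had signals of 467.1, 346 and 316.5 in vte1 and 158.9, 195.3 and 330.4 in vte2 (-0.71 ± 0.37, adjusted p = 0.35). TUB1, a beta-tubulin, had 600.9, 825.2 and 3061.9 against 1748.1, 1542.2 and 2879.4 (0.77 ± 0.47, adjusted p = 0.45), and replicate 3 was the highest array of both groups. The oxidase gene AT1G26380 had 11, 30.2 and 100.3 against 52, 32.5 and 226.5 at day 1 (0.75 ± 0.60, adjusted p = 0.59), and 53.7, 69.5 and 14.9 against 1043, 1131.5 and 1404.8 at day 3 (4.25 ± 0.60, adjusted p = 0.00036). No gene of the abscisic acid, jasmonate and aquaporin lists was measured under the probe table used.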
